A study of Rattus norvegicus with 6 samples.

Results

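Cytochrome P450 enzymes are haem proteins that insert oxygen into steroids, fatty acids, vitamins and foreign compounds. Most sit in the endoplasmic reticulum, where they take electrons from the reductase Por, and a few sit in mitochondria, where ferredoxin (Fdx1) supplies them. Liver is the best known site of the family, but brain cells use some of its members to turn over cholesterol, retinoic acid and fatty acids. The genes described here are the protein-coding entries of the deposited rat table whose symbol has the form Cyp, family number, subfamily letters and gene number. The sterol gene Cyp51 was left out. This gave 80 genes of the 37991 in the table. The rule itself used no measured value, but it was chosen with earlier results of these data known. Cyp3a71-ps was kept because the table lists it as protein coding, although its symbol is that of a pseudogene.

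The libraries came from SD rat cells grown in culture: 3 were of differentiated oligodendrocytes and 3 of their precursors. Oligodendrocytes are the cells that form myelin, the sheath around axons. Both groups were grown in Raff medium, and differentiation was started by changing the growth factors. Both groups carry the replicate numbers 1, 2 and 5; titles give day 3 for differentiated replicates 1 and 2 and day 0 for precursor replicates 1 and 2, and no day in that form for replicate 5. The question is which P450 transcripts cultures of each stage hold, and at which level.

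Total read counts per library ran from 55522101 to 79898629. Markers of myelinating oligodendrocytes rose: Mbp, a main protein of myelin, stood at 7365 to 9874 CPM (the count of a gene scaled to the size of its library) in differentiated libraries and 354.8 to 887.9 CPM in precursor libraries (edgeR adjusted p = 0.00166, log2 fold change 4.07), and Mog, a protein of the myelin surface, at 71.6 to 78.1 CPM in differentiated libraries and 1.51 to 1.95 CPM in precursor libraries (edgeR adjusted p = 3.37e-05, log2 fold change 5.43). Both replicate 1 libraries stood apart from the others of their group on the leading pair of principal components, which held 43.4% and 25.3% of the variance. The RNA is bulk RNA, and markers of other brain cells were read in it. Fewer cells of a type and less RNA per cell can therefore not be told apart. The astrocyte marker Gfap stood at 5702 to 6114 CPM in differentiated libraries and 3195 to 4812 CPM in precursor libraries. Of 6 markers of oligodendrocyte precursors, edgeR called 0 in either direction. DESeq2 called 1 of them higher, and with the replicate number as a block 3 were higher and 1 lower. The labels do not say that replicates are separate cultures, and the spread behind each p-value may be technical. Levels are CPM after TMM scaling, which sets libraries to a common level by their typical gene ratio. Levels of different genes are compared in TPM, a unit that corrects for transcript length.

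Of the 80 P450 genes, 45 had at least 1 read in any library, 26 had reads in all 6 libraries and 30 passed the low-count filter of edgeR. Thus 56.2% of P450 genes had a read and 37.5% passed the filter, against 80.1% and 68.2% of all 22640 protein-coding genes of the table. A mean of at least 1 CPM in either group was reached by 21 P450 genes and a mean of at least 5 CPM by 10. No read in any library was found for 35 genes, which at this depth allows a level of up to 0.0546 CPM (3 reads in the smallest library, counting error only). The other 15 genes had 2 to 36 reads in all libraries together, 8 of them in a single library, and no group is compared for them.

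Among the genes without reads were many known from liver. All 6 Cyp2b and all 4 Cyp4a genes had none, nor had 7 of the 8 Cyp2c genes. Cyp2e1, which oxidises ethanol, Cyp1a2, and the bile acid enzymes Cyp7a1 and Cyp8b1 also had no read. Of 6 genes of steroid hormone synthesis, none passed the filter. Cyp17a1 and Cyp11b3 had no read; Cyp11a1, which cuts the cholesterol side chain to start the pathway, had 21 reads in precursor 1 and 6 in precursor 5, and Cyp19a1, which makes oestrogens, had 5 reads in differentiated 2.

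**Figure D1:**
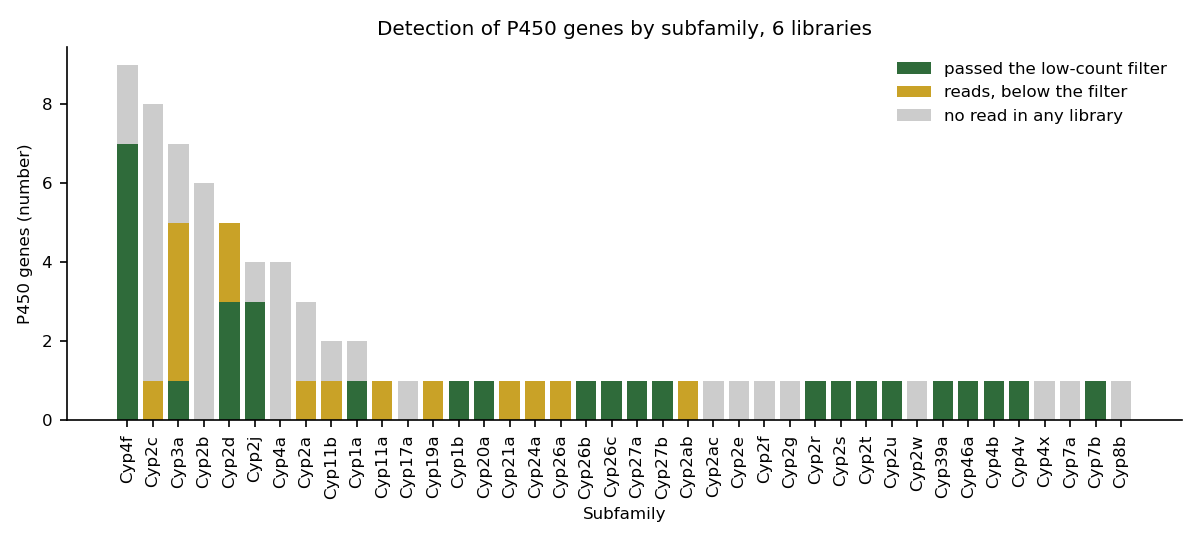
Number of P450 genes (vertical axis) in each subfamily (horizontal axis), split into genes that passed the low-count filter, genes with reads below it and genes with no read in the 6 libraries. The Cyp4f subfamily has 7 of 9 genes past the filter, while Cyp2b and Cyp4a have no gene with a read.

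Detection differed between gene neighbourhoods. In the order of genes on the assembly GRCr8, used for neighbours and promoters alone, 57 of the 79 matched members lie within 1 Mb of another member, in 12 groups. The group on chromosome 1 that runs from Cyp2s1 to Cyp2t1 held 13 members, of which 3 had a read and 2 passed the filter. The 5 neighbouring Cyp2c genes from Cyp2c6v1 to Cyp2c22 had no read. The Cyp4f group on chromosome 7 held 8 members, of which 7 passed, and all 5 Cyp2d genes on the same chromosome had reads. On chromosome 5, Cyp4b1 was the only one of 6 neighbours with a read, the others being Cyp4x1 and the Cyp4a genes. Genes of the same subfamily within these groups can be similar in sequence, which was not compared here. The sources used here do not say how reads shared between similar genes were counted. Single values in the Cyp2d, Cyp2j and Cyp4f groups are therefore uncertain. The same holds for the lack of reads in neighbouring Cyp2b, Cyp2c, Cyp3a and Cyp4a genes, which the counting floor given above does not cover.

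By TPM a few genes made up most of the P450 transcripts. The leading 3 genes held 55.3% to 58.4% of the summed P450 TPM in differentiated libraries and 62.8% to 65.1% in precursor libraries. Cyp20a1, an enzyme without an established substrate, ranked 1 in 5 of the 6 libraries and 2 in differentiated 5. Its share was 24.8%, 24.0% and 20.9% in differentiated 1, 2 and 5, and 27.3%, 35.7% and 32.1% in precursors 1, 2 and 5. Cyp2u1, which hydroxylates long-chain fatty acids, held 18.6%, 19.4% and 27.1% in differentiated libraries and 6.24%, 9.02% and 10.1% in precursor libraries. Cyp7b1, an oxysterol hydroxylase, held 14.8%, 11.9% and 10.4% in differentiated libraries and 24.9%, 20.4% and 20.7% in precursor libraries. The summed level of all 80 genes was 366, 346 and 332 CPM in differentiated 1, 2 and 5, and 326, 253 and 251 CPM in precursors 1, 2 and 5.

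**Figure D2:**
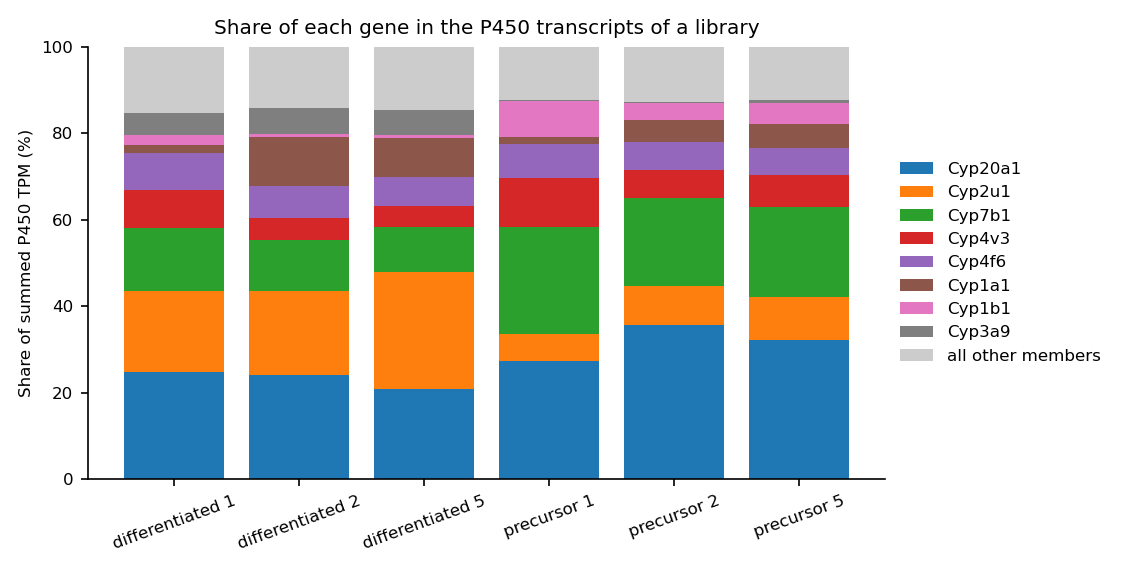
Share of the summed P450 TPM (vertical axis, %) held by 8 genes and by all other members in each of the 3 differentiated and 3 precursor libraries. Cyp2u1 takes 18.6% to 27.1% in differentiated libraries and 6.24% to 10.1% in precursor libraries, and Cyp7b1 takes less in each differentiated library than in any precursor library.

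In the comparison of differentiated cells with precursors, 4 of the 30 P450 genes tested rose and 0 fell at an edgeR adjusted p under 0.05. Over all 17797 genes tested, 5.65% were called higher and 3.21% lower, or 8.86% in either direction. Among protein-coding genes 6.28% were called higher and 3.54% lower. An unadjusted p under 0.05 was found for 7 P450 genes in the higher and 2 in the lower direction. Beside them, 4110 of all 17797 genes tested had one in either direction. Limma on log2(TPM + 1) called 4 P450 genes higher and 2 lower, beside 487 and 1000 of all 17797 genes. DESeq2 called 7 P450 genes higher and 1 lower, where it called 7.29% of all its genes higher and 5.98% lower. With the replicate number as a block, 9 P450 genes were higher and 3 lower, where 14.9% of all genes were called higher and 15.7% lower (30.6% in all). Without both replicate 1 libraries, 8 were higher and 2 lower, beside 8.48% and 8.11% of all genes (16.6% in all). The median log2 fold change was 0.34 over the 30 P450 genes and -0.0376 over all genes tested. Scaling by library size alone moved the median of all genes to -0.188, and limma on log2(TPM + 1) moved it to -0.172.

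**Figure D3:**
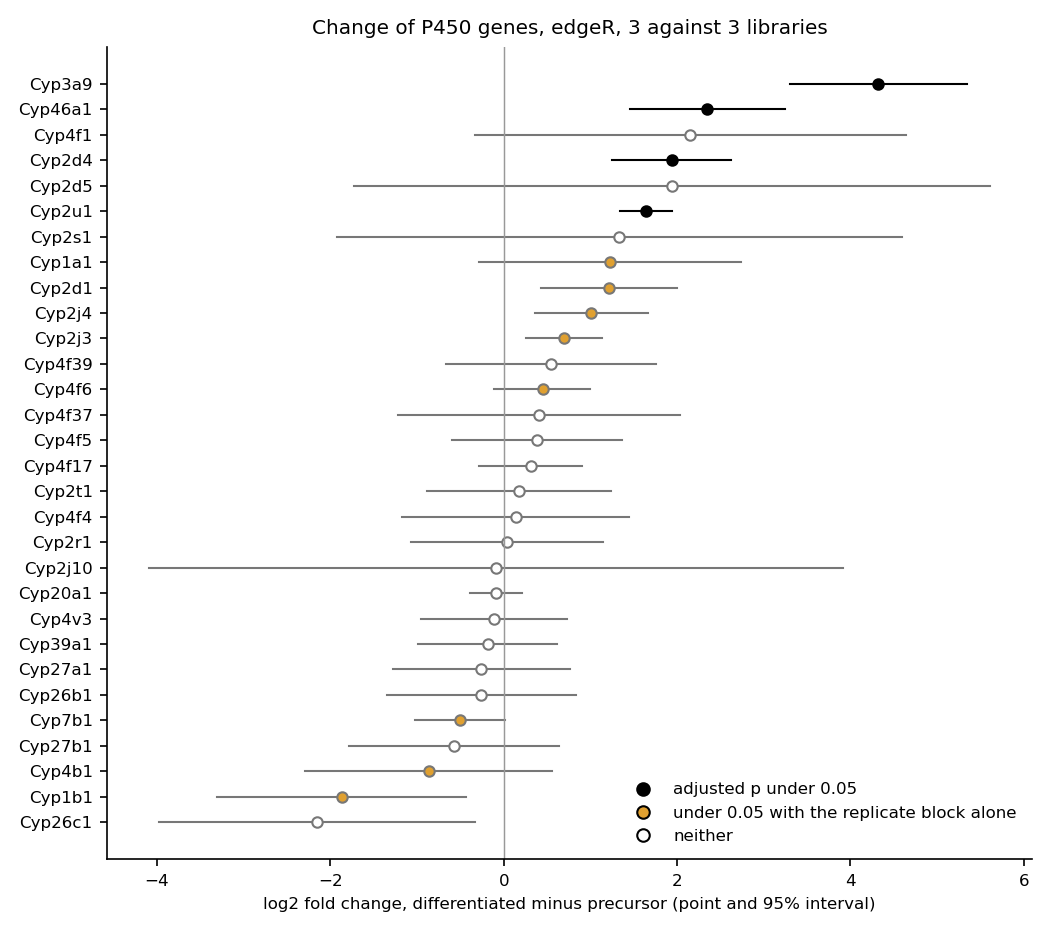
Log2 fold change, differentiated minus precursor, with its 95% interval (horizontal axis) for the 30 P450 genes that passed the filter, in order of size. Black points passed the edgeR test on all 6 libraries (adjusted p under 0.05). Amber points passed it only with the replicate block, and open points passed in neither fit. The 4 black points are Cyp3a9, Cyp46a1, Cyp2d4 and Cyp2u1.

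The 4 genes that rose were Cyp2u1, Cyp3a9, Cyp46a1 and Cyp2d4. Cyp2u1 (310848) stood at 100.4, 100.2 and 114.9 CPM in differentiated 1, 2 and 5, against 29.9, 34.1 and 37.1 CPM in precursors 1, 2 and 5. The groups did not overlap, and the spread within each was small beside the gap. Its level was 3.12-fold higher in differentiated cells (edgeR adjusted p = 0.000594, log2 fold change 1.64, SE 0.13, higher in 3 of 3 same-numbered pairs). The call held in all 6 fits that left out a library, with an adjusted p of at most 0.00803.

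Cyp3a9 (171352) belongs to the subfamily that oxidises steroids and many drugs. It stood at 12.8, 14.6 and 13.9 CPM in differentiated libraries, against 0.879, 0.279 and 0.903 CPM in precursor libraries. The lowest precursor value, that of replicate 2, rested on 20 reads, while differentiated libraries had 763 to 942 reads. This was the largest change among the P450 genes tested (edgeR adjusted p = 0.00169, log2 fold change 4.32, SE 0.44, 95% interval 3.30 to 5.35). By TPM it ranked 6 among P450 genes in each differentiated library, and between 16 and 25 in precursor libraries. Of the other 6 Cyp3a genes, none passed the filter, and their reads in all libraries together ran from 0 to 36. The neighbour Cyp3a62 had 29 and 7 reads in precursors 1 and 2 and none elsewhere.

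Cyp46a1 (362782) hydroxylates the side chain of cholesterol so that it can leave the brain, and is known as a neuronal enzyme. Its level was 2.72, 4.03 and 6.44 CPM in differentiated 1, 2 and 5, against 0.722, 0.908 and 0.945 CPM in precursors 1, 2 and 5. All differentiated values lay above all precursor values, but differentiated libraries were spread more widely. The log2 fold change was 2.35 (SE 0.38, edgeR adjusted p = 0.0108), and the call was lost without precursor 2 (adjusted p = 0.0595). Of 8 neuron markers, 7 were tested, 0 rose and Stmn2 fell by 0.84 on the log2 scale (edgeR adjusted p = 0.0268, a call lost when any 1 library other than precursor 1 was left out, with adjusted p up to 0.111). No neuron marker tested had an unadjusted edgeR p under 0.05 in the higher direction, and 3 had one in the lower direction. DESeq2 called 0 higher and 2 lower, and limma on log2(TPM + 1) called 0 higher and 1 lower. With the block Gad1 was also lower (edgeR adjusted p = 0.098, and 0.0457 with the block). The marker that was not tested, Slc17a7, had 0, 72 and 24 reads in differentiated 1, 2 and 5, against 0, 5 and 5 reads in precursors 1, 2 and 5, and had a log2 fold change of 3.45 in the fit without both replicate 1 libraries (edgeR adjusted p = 0.0516). The summed level of these neuron markers was 124 to 158 CPM in differentiated libraries and 113 to 241 CPM in precursor libraries, and their part in the Cyp46a1 result was not tested.

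Cyp2d4 (171522) is the Cyp2d form best known from rat brain, where the subfamily oxidises amines and many drugs. It had 3.71, 3.97 and 3.8 CPM in differentiated libraries, against 0.722, 1.22 and 1.06 CPM in precursor libraries. Differentiated libraries differed from each other by less than precursors did, and the groups did not overlap. The log2 fold change was 1.94 (SE 0.29, edgeR adjusted p = 0.00803, at most 0.046 with any library left out). Of 8 astrocyte markers, 4 rose (1 by limma on log2(TPM + 1), 5 by DESeq2 and 7 with the block). The summed level of the 8, most of it Gfap, was 6829 to 7151 CPM in differentiated libraries and 3966 to 5480 CPM in precursor libraries. Gfap itself was called only with the block (log2 fold change 0.54, edgeR adjusted p = 0.0849, and 0.0138 with the block). Slc1a2 was lower in 3 of 3 pairs and was not called (log2 fold change -0.30, edgeR adjusted p = 0.517). Aldh1l1, Fgfr3, Slc4a4 and Gja1 were the 4 that rose (Gja1 was called in 2, Fgfr3 in 5 and the others in all 6 fits that left out a library), and their part in the P450 results was not tested.

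The promoters of these 4 genes and of Cyp1b1, the gene with the lowest fold change among those above 5 CPM, are given below to show how different their upstream sequences are. Each is the 300 bases from 250 before to 50 after the start of the gene in RefSeq on GRCr8, read 5′ to 3′ on the strand of the gene. Capitals mark the GC box GGGCGG and the core motif GCGTG of the aryl hydrocarbon receptor, on either strand; the motifs did not overlap each other in these windows.
Cyp2u1, chr2:222540940-222541239, minus strand: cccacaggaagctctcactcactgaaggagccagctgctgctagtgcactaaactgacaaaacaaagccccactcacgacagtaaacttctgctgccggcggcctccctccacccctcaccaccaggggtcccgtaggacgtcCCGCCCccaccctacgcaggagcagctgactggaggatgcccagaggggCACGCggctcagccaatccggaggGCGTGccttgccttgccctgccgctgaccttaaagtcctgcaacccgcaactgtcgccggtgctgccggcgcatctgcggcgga
Cyp3a9, chr12:21960111-21960410, minus strand: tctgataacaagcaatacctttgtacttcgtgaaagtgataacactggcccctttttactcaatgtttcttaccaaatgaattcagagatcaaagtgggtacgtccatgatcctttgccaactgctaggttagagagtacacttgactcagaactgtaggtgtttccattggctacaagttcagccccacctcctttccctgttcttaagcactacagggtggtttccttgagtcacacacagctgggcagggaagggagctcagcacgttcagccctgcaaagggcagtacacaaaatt
Cyp46a1, chr6:133011740-133012039, plus strand: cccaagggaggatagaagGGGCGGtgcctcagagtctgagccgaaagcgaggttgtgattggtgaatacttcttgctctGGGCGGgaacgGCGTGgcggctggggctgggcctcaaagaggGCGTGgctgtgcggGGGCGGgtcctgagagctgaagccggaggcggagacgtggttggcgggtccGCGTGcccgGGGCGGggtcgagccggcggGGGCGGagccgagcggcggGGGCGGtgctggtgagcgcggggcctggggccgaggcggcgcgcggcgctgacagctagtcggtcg
Cyp2d4, chr7:115771772-115772071, minus strand: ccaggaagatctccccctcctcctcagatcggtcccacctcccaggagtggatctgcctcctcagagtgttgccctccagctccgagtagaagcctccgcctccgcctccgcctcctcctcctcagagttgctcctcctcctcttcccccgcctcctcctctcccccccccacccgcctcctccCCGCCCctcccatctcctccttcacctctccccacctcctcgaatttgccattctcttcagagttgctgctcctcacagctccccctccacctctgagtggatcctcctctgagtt
Cyp1b1, chr6:21094315-21094614, plus strand: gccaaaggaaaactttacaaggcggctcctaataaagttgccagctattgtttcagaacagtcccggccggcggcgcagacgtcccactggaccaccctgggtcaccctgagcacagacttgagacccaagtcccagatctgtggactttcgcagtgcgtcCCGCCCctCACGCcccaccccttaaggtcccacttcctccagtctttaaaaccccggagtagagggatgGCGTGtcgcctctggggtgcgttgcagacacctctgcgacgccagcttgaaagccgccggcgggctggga

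Base composition was highest and lowest in G and C for Cyp46a1 and Cyp3a9: 73.0% of the Cyp46a1 window was G or C, against 46.0% for Cyp3a9. The Cyp46a1 window held 6 GC boxes and 3 GCGTG cores, that of Cyp2u1 held 1 and 2, that of Cyp2d4 held 1 and 0, and that of Cyp3a9 held neither. The Cyp1b1 window held 1 GC box and 2 GCGTG cores. None of the 5 windows held TATAAA. RefSeq promoters were matched for 64 of the 80 genes, some with more than 1 start. Of the 27 promoters of P450 genes that passed the filter, 14 held GGGCGG, 13 held GCGTG and 3 held TATAAA. Of 30 promoters of P450 genes without a read, 5, 5 and 9 did, and their median G and C content was 46.8%, against 56.0% for those that passed. Across all 33469 promoters of the table, 33.1% held GGGCGG, 29.7% held GCGTG and 14.2% held TATAAA. These matches are descriptions of the letters in the windows.

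Of 4 enzymes of bile acid and cholesterol turnover tested, edgeR called 1 higher (Cyp46a1) and 0 lower. Cyp7b1 (25429) had the highest level of the 4 by TPM. It stood at 53.8, 41.0 and 35.5 CPM in differentiated 1, 2 and 5, against 79.2, 53.1 and 52.0 CPM in precursors 1, 2 and 5. Within each replicate number the differentiated library was lower, while differentiated 1 lay among the precursor values. Over all libraries Cyp7b1 missed the threshold (edgeR adjusted p = 0.232, log2 fold change -0.50, SE 0.22), and it passed with the replicate block (edgeR adjusted p = 0.00426, log2 fold change -0.49). It also passed without both replicate 1 libraries (edgeR adjusted p = 0.0494, log2 fold change -0.45). Limma called it lower on log2(TPM + 1) and log2(TPM + 0.1) (limma adjusted p = 0.038 and 0.0358), and DESeq2 did not (DESeq2 adjusted p = 0.158). Cyp27a1, the mitochondrial sterol hydroxylase, averaged 2.28 ± 1.33 CPM in differentiated cells and 2.73 ± 0.634 CPM in precursors (SD, n = 3 each). Cyp39a1, which acts on oxysterols, averaged 1.33 ± 0.399 CPM in differentiated cells and 1.51 ± 0.112 CPM in precursors (SD, n = 3 each). Neither passed the test, with 95% intervals of the log2 fold change of -1.28 to 0.76 for Cyp27a1 and -0.99 to 0.62 for Cyp39a1.

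Other genes of oxysterol handling gave no call: of 9 tested, 0 rose and 0 fell with edgeR, 3 had an unadjusted p under 0.05, DESeq2 called 2 higher and limma on log2(TPM + 1) called 0. With the block, Abca1, Abcg1 and Nr1h2 were higher and Ch25h was lower. Abca1 and Abcg1, exporters of cholesterol that oxysterol receptors are known to induce, had log2 fold changes of 0.65 and 0.74 (edgeR adjusted p = 0.0598 and 0.0553, and 0.0017 and 0.00132 with the block). Cyp51, the sterol P450 outside the chosen set, stood at 963, 840 and 784 CPM in differentiated libraries and 505, 443 and 441 CPM in precursor libraries (edgeR adjusted p = 0.00478, log2 fold change 0.90). By TPM, at 265.6, 275.7 and 275.3 in differentiated libraries and 161.4, 166.4 and 199.6 in precursor libraries, it exceeded the sum of all 80 genes in each library, which ran from 115 to 137.2 TPM in differentiated and from 112.5 to 130.8 TPM in precursor libraries.

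Of 10 fatty acid hydroxylases tested, 1 rose (Cyp2u1) and 0 fell, while 2 were higher and 1 lower with the block. Cyp4v3, which hydroxylates fatty acids, had 38.4, 21.9 and 20 CPM in differentiated 1, 2 and 5, against 43.5, 20.5 and 22.8 CPM in precursors 1, 2 and 5. Both replicate 1 libraries held about the same high level, and the groups overlapped (log2 fold change -0.11, 95% interval -0.95 to 0.73, edgeR adjusted p = 0.896). Cyp4f6 had 21.7, 16.9 and 15.2 CPM in differentiated libraries, against 17.3, 11.5 and 10.8 CPM in precursor libraries. It was higher in 3 of 3 pairs but the groups overlapped, and it passed only with the block (log2 fold change 0.45, edgeR adjusted p = 0.313, and 0.0185 with the block). Cyp4f17 had 5.13, 4.94 and 5.97 CPM in differentiated libraries, against 3.28, 4.15 and 5.53 CPM in precursor libraries, and did not pass (edgeR adjusted p = 0.535, log2 fold change 0.31, or -0.08 on log2(TPM + 1)).

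Cyp4b1, which acts on fatty acids and small foreign compounds, had 3.26, 0.930 and 1.07 CPM in differentiated libraries, against 5.27, 1.77 and 2.56 CPM in precursor libraries. It was lower within each replicate number, and differentiated 1 lay above precursors 2 and 5. It did not pass (edgeR adjusted p = 0.461, log2 fold change -0.86) and passed with the block (edgeR adjusted p = 0.0258, log2 fold change -0.95). Cyp4f1 had 114, 121 and 88 reads in differentiated 1, 2 and 5, against 0, 34 and 47 reads in precursors 1, 2 and 5. A single 0 beside values of 20 reads or more occurred for 115 genes of this table and can be a failed estimate. The log2 fold change of Cyp4f1 was 2.15 (edgeR adjusted p = 0.279), or 1.63 without both replicate 1 libraries (edgeR adjusted p = 0.0432). The other Cyp4f genes tested, Cyp4f4, Cyp4f5, Cyp4f37 and Cyp4f39, reached at most 1.24 CPM in any library and did not pass.

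**Figure D4:**
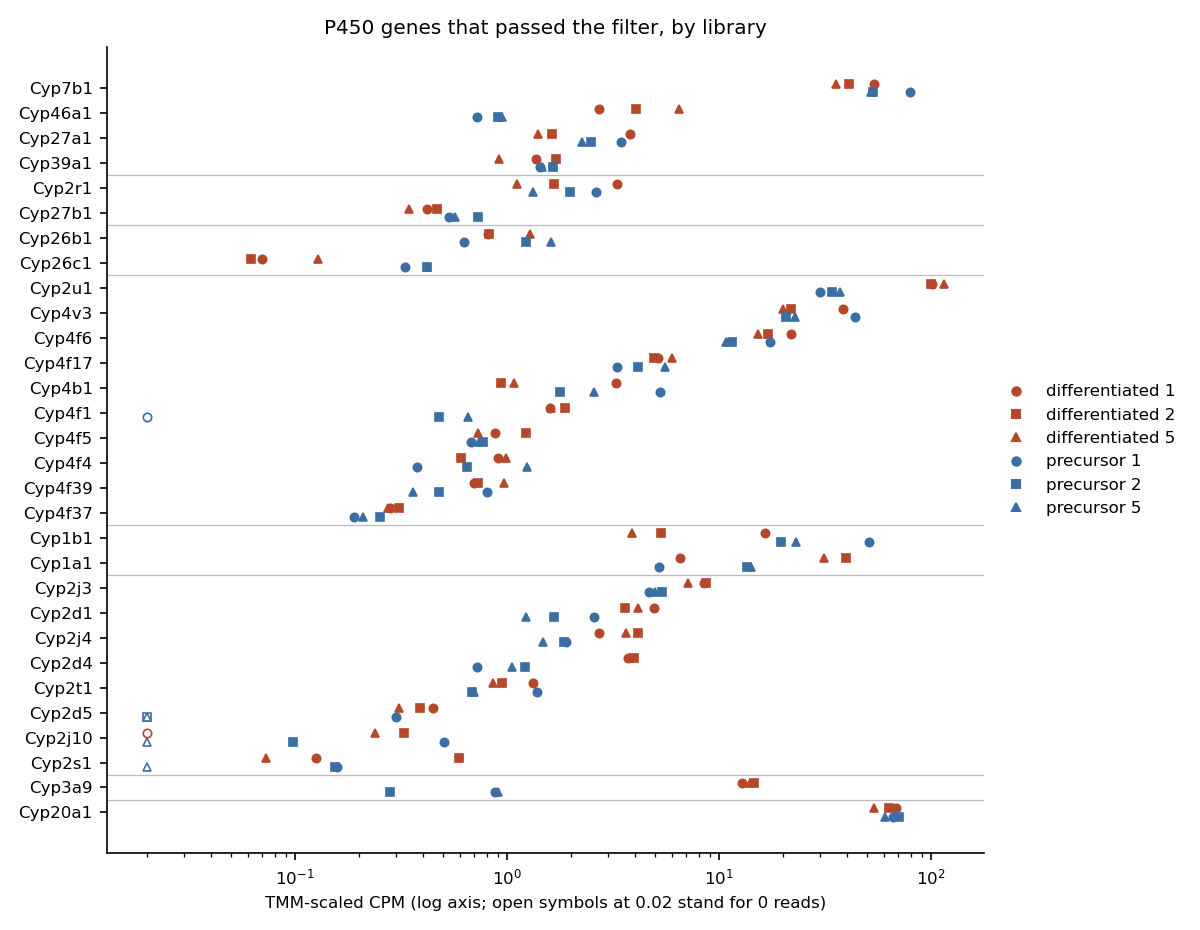
TMM-scaled CPM (horizontal log axis) of the 30 P450 genes that passed the filter in each library; red symbols are differentiated and blue symbols precursor libraries, shapes give the replicate number, and grey lines separate roles. Cyp2u1, Cyp3a9, Cyp46a1 and Cyp2d4 have all red symbols to the right of all blue ones, and Cyp1b1 has all red symbols to the left.

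The family 1 genes Cyp1a1 and Cyp1b1 are known targets of the aryl hydrocarbon receptor. Neither passed the edgeR test when all 6 libraries were fitted without the block. Cyp1b1 (25426), which metabolises oestrogens and polycyclic hydrocarbons, stood at 16.5, 5.28 and 3.88 CPM in differentiated 1, 2 and 5, against 51.1, 19.6 and 23.1 CPM in precursors 1, 2 and 5. The groups did not overlap, and in both groups replicate 1 was the highest. With all 6 libraries Cyp1b1 missed the threshold in edgeR (edgeR adjusted p = 0.118, log2 fold change -1.87, SE 0.61, lower in 3 of 3 pairs). On the same libraries without a block, DESeq2 called it lower (DESeq2 adjusted p = 0.00359, log2 fold change -1.89). So did limma on log2(TPM + 1) and log2(TPM + 0.1) (limma adjusted p = 0.0262 and 0.023). In edgeR, Cyp1b1 passed without differentiated 1 (edgeR adjusted p = 0.0207, log2 fold change -2.76). It also passed with the block (edgeR adjusted p = 0.000688, log2 fold change -2.01) and without both replicate 1 libraries (edgeR adjusted p = 0.00123, log2 fold change -2.21).

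Cyp1a1 (24296), which oxidises polycyclic hydrocarbons, stood at 6.56, 39.5 and 31.1 CPM in differentiated 1, 2 and 5, against 5.21, 13.5 and 14.1 CPM in precursors 1, 2 and 5. Here both replicate 1 libraries were the lowest of their group, and differentiated 1 lay below 2 of the precursor values. The difference missed the threshold (edgeR adjusted p = 0.309, log2 fold change 1.23, SE 0.65, higher in 3 of 3 pairs), and passed with the block (edgeR adjusted p = 0.0154, log2 fold change 1.03) and without both replicate 1 libraries (edgeR adjusted p = 0.0028, log2 fold change 1.36). The ratio of Cyp1a1 to Cyp1b1 in TPM was 0.764, 14.7 and 15.8 in differentiated 1, 2 and 5, and 0.200, 1.32 and 1.14 in precursors 1, 2 and 5. It was higher in the differentiated library of every replicate number, while differentiated 1 lay below precursors 2 and 5.

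Neither the receptor nor its partners were called. Of 7 genes of xenobiotic sensing tested, edgeR called 0 in either direction, 0 had an unadjusted p under 0.05, and DESeq2 and limma on log2(TPM + 1) called 0. With the block 1 was lower, Ephx1, an epoxide hydrolase (log2 fold change -0.31, edgeR adjusted p = 0.382, and 0.0291 with the block). The receptor Ahr had 2.45, 2.98 and 3.97 CPM in differentiated libraries, against 4.42, 3.07 and 4.53 CPM in precursor libraries. Its repressor Ahrr had 2.61, 4.42 and 1.80 CPM in differentiated libraries, against 3.42, 5.59 and 5.43 CPM in precursor libraries, and Tiparp, another target, had a log2 fold change of -0.05. The receptor Nr1i2, which is known to induce Cyp3a genes in liver, had no read in any library.

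Of 8 markers of fibroblasts, meningeal cells and pericytes, Col1a1, Col1a2, Col3a1, Dcn and Lum were, like Cyp1b1, highest in replicate 1 of each group and lower in the differentiated library of each number. Kcnj8 was lowest in replicate 1 of each group, and Pdgfrb was higher in each differentiated library than in any precursor library. The summed level of the list, most of it Col3a1, was 186, 43.0 and 51.2 CPM in differentiated 1, 2 and 5, and 301, 76.4 and 87.1 CPM in precursors 1, 2 and 5. Of these markers 7 were tested, and 0 fell (0 also by DESeq2, by limma on log2(TPM + 1) and at an unadjusted p under 0.05), while the collagens, Dcn and Lum, 5 in all, fell with the block, and Rgs5 had no read. Pdgfrb rose (edgeR adjusted p = 0.0265, log2 fold change 1.04), a call lost when any 1 library other than precursor 1 was left out (adjusted p up to 0.115). The summed level of 8 microglia and macrophage markers was 553, 299.7 and 293 CPM in differentiated libraries and 776, 299.5 and 311 CPM in precursor libraries. None of them was called by edgeR, DESeq2 or limma, 1 had an unadjusted p under 0.05, and with the block C1qb was higher and Itgam and Ptprc were lower (edgeR adjusted p = 0.0214, 0.00121 and 0.00226). The part of these cells in the Cyp1b1 and Cyp1a1 values was not tested.

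**Figure D5:**
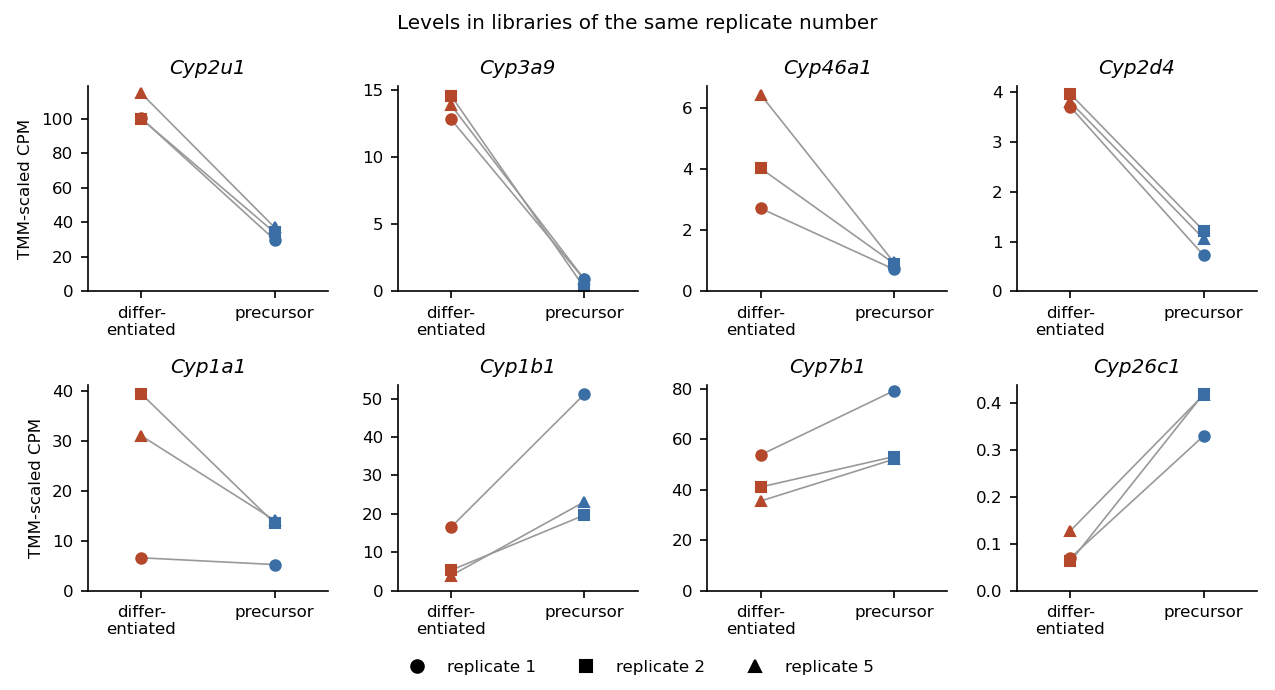
TMM-scaled CPM (vertical axes, each from 0) of 8 P450 genes in differentiated and precursor libraries, with lines joining libraries of the same replicate number. Cyp1b1, Cyp7b1 and Cyp26c1 are lower and the other 5 genes higher in the differentiated library of each number, and replicate 1 lies apart for Cyp1a1, Cyp1b1 and Cyp7b1.

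Cyp2j3 and Cyp2j4, of a subfamily whose products form epoxides from arachidonic acid, and Cyp2d1 were higher in each differentiated library than in any precursor library. Cyp2j3 (313375) had 8.5, 8.69 and 7.15 CPM in differentiated libraries, against 4.66, 5.38 and 4.99 CPM in precursor libraries. Cyp2j4 (65210) had 2.72, 4.14 and 3.64 CPM in differentiated libraries, against 1.88, 1.84 and 1.47 CPM in precursor libraries. Cyp2d1 (266684) had 4.93, 3.61 and 4.13 CPM in differentiated libraries, against 2.57, 1.66 and 1.22 CPM in precursor libraries. None of the 3 passed the edgeR test over all genes (edgeR adjusted p = 0.0635 for Cyp2j3, 0.0702 for Cyp2j4 and 0.071 for Cyp2d1). Each passed with the block (edgeR adjusted p = 0.0152, 0.0265 and 0.0104), and their log2 fold changes were 0.70, 1.01 and 1.22. DESeq2 called all 3 higher (DESeq2 adjusted p = 0.0122, 0.0227 and 0.0126), and limma on log2(TPM + 1) called none of them. Without both replicate 1 libraries, Cyp2j4 and Cyp2d1 passed and Cyp2j3 did not (edgeR adjusted p = 0.029, 0.0218 and 0.0851). Groups that did not overlap were found for 10 of the 30 P450 genes in the higher and 3 in the lower direction, and for 16.5% and 13.8% of all genes tested.

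The remaining family 2 genes that were tested had low counts. Cyp2d5 had 32, 25 and 17 reads in differentiated 1, 2 and 5, against 19, 0 and 0 reads in precursors 1, 2 and 5. Cyp2t1 stayed between 0.685 and 1.38 CPM in all libraries (log2 fold change 0.18, 95% interval -0.88 to 1.24). Cyp2j10 and Cyp2s1 each had 0 reads in precursor 5, and neither passed.

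Of arachidonic acid genes outside the family, 11 were tested and 1 rose. This was Ptgds, a prostaglandin synthase known from brain, with 6.77, 19.8 and 18.2 CPM in differentiated libraries and 1.26, 3.54 and 2.54 CPM in precursor libraries (edgeR adjusted p = 0.0234, log2 fold change 2.61), and the call was lost when any 1 of the replicate 2 and 5 libraries was left out (adjusted p up to 0.0924). With the block, Ptgs1, Ptgs2, Ptges and Pla2g4a were lower. Tbxas1, the thromboxane synthase and a P450 by descent, had 52.7, 21.0 and 24.9 CPM in differentiated libraries, against 96.6, 45.0 and 48.0 CPM in precursor libraries (log2 fold change -0.94, edgeR adjusted p = 0.241, and 0.000409 with the block). Ephx2, which opens the epoxides that Cyp2j enzymes form, had a log2 fold change of 0.32 (SE 0.49) and did not pass.

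For retinoic acid, the Cyp26 enzymes are the main route of clearance. Cyp26b1 (312495) had 0.808, 0.821 and 1.27 CPM in differentiated libraries, against 0.628, 1.23 and 1.61 CPM in precursor libraries, with overlapping groups (edgeR adjusted p = 0.802, log2 fold change -0.26). Cyp26c1 (308190) had 5, 4 and 7 reads in differentiated 1, 2 and 5, against 21, 30 and 30 reads in precursors 1, 2 and 5. These low counts did not overlap, but missed the threshold (edgeR adjusted p = 0.151, log2 fold change -2.16, SE 0.78, with an adjusted p of 0.16 under the block). Cyp26a1, its neighbour in the genome, had 8 reads in precursor 2 and none elsewhere.

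The retinoid genes outside the family included 1 that rose and 1 that fell among 14 tested. An unadjusted p under 0.05 was found for 3 in the higher and 5 in the lower direction; DESeq2 called 2 higher and 3 lower, limma on log2(TPM + 1) called 0 higher and 4 lower, and the block gave 2 higher and 2 lower. Rarb, a retinoic acid receptor whose gene is itself a known target of retinoic acid, fell to 2.33, 1.5 and 1.66 CPM in differentiated libraries, against 12.1, 15.5 and 10.7 CPM in precursor libraries (edgeR adjusted p = 0.0012, log2 fold change -2.80, SE 0.26). Aldh1a1, which makes retinoic acid, rose to 32.3, 18.3 and 19.1 CPM in differentiated libraries, against 6.60, 11.7 and 8.21 CPM in precursor libraries (edgeR adjusted p = 0.0326, log2 fold change 1.39), and the call was lost with any 1 library left out (adjusted p 0.0552 to 0.107). Crabp2, which carries retinoic acid in the cytosol, had a log2 fold change of -1.30 and passed with the block (edgeR adjusted p = 0.0729, and 0.00773 with it). Rarg, another receptor for retinoic acid, had a log2 fold change of 0.64 and likewise passed with the block (edgeR adjusted p = 0.111, and 0.0318 with it). Stra6, the retinol transporter, had a difference of -2.50 on the log2 scale (edgeR adjusted p = 0.0917) and passed in neither fit.

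For vitamin D, Cyp2r1, which makes the circulating form, averaged 2.02 ± 1.13 CPM in differentiated cells and 1.97 ± 0.650 CPM in precursors (SD, n = 3 each; log2 fold change 0.04, 95% interval -1.07 to 1.14). Cyp27b1, which makes the active hormone, had 0.418, 0.465 and 0.346 CPM in differentiated libraries, against 0.533, 0.727 and 0.570 CPM in precursor libraries. These groups did not overlap, and the difference missed the threshold (edgeR adjusted p = 0.578, log2 fold change -0.57). Cyp24a1, which breaks the hormone down, had 8 reads in precursor 2 and 4 in precursor 5. Of 10 steroid and vitamin D pathway genes tested outside the family, edgeR called 0, 0 had an unadjusted p under 0.05, and DESeq2 and limma on log2(TPM + 1) called 0. With the block 1 was lower, the glucocorticoid receptor Nr3c1 (log2 fold change -0.23, edgeR adjusted p = 0.302, and 0.04 with the block).

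Cyp20a1, the leading gene by TPM in 5 libraries, had 67.9, 62.9 and 53.5 CPM in differentiated 1, 2 and 5, against 65.7, 70.1 and 60.7 CPM in precursors 1, 2 and 5. The groups overlapped, and the 95% interval of the log2 fold change, -0.39 to 0.21, was the narrowest along with that of Cyp2u1. The electron donors of the family and the haem enzymes likewise gave no call in 14 genes tested (0 higher and 0 lower by edgeR, 1 with an unadjusted p under 0.05, 1 higher by DESeq2 and 0 by limma on log2(TPM + 1)). The reductase Por had 199, 166 and 176 CPM in differentiated libraries, against 168, 148 and 131 CPM in precursor libraries (log2 fold change 0.28, edgeR adjusted p = 0.26, and 0.0266 with the block). Alas1, the first enzyme of haem synthesis, and Hmox2 were also higher with the block, while Pgrmc1 and Hmox1 were lower.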

How the data were processed

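Per the labels' protocols, ISOGEN was used for total RNA and a stranded TruSeq kit for the libraries. The authors deposited 1 table with a read count, an FPKM value and a TPM value for each gene and library. Counts were used as deposited, and the authors' FPKM values were not used. TPM as deposited by the authors served to compare genes with each other and, in the alternative limma fits, to compare the groups. The 7SL RNA gene Rn7sl1 alone held 34.2% to 38.7% of TPM in differentiated libraries and 24% to 32.8% in precursor libraries. The limma fits on TPM were not scaled for this. Per the submitters' processing notes, the tools were HISAT2 2.1.0, StringTie 2.1.3b, Trimmomatic 0.38 and bcl2fastq 2.20.0, and the notes name the build GRCh38, a human assembly, although gene IDs are rat. Not given in the sources used here: the rat build, the annotation, the strand setting and the handling of reads shared between similar genes. Overlapping genes on opposite strands may therefore share reads. No deposited coordinates were used. RefSeq on GRCr8 gave promoters and neighbours, and 79 of 80 members matched its gene table by ID.

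Counts were tested with edgeR 4.0.16 in R 4.3.3 (TMM scaling, filterByExpr, robust quasi-likelihood F test), with calls at an adjusted p under 0.05. Benjamini-Hochberg adjustment ran over all genes tested in a fit. These were 17797 in the main fit and with the block, and 18036 without both replicate 1 libraries. The filter was run anew in each fit with libraries left out. The SE is the size of the log2 fold change divided by the root of F. Adjusted p-values not marked DESeq2 or limma come from this test, with differentiated over precursor libraries. DESeq2 1.42.0, limma 3.58.1, other scalings and filters and fits without single libraries were the alternatives. The test was checked on simulated data. The 3-read floors cover counting error only. Intervals of the log2 fold change rest on this SE and so also take in the spread between libraries.

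The labels do not say that replicate numbers pair the libraries. Deviations from the group means correlated at 0.421, 0.197 and 0.272 for the same number and at most 0.105 otherwise, so the numbers were taken to pair them. The main fit nevertheless has no block and leaves 4 degrees of freedom, while the fit with the block leaves 2. Values with the replicate block stand beside the named results whose call they change. Values in every library are given for members called with or without the block or with a mean of at least 5 CPM. Roles were assigned by symbol. Members and lists were chosen with earlier results of these data known.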

Additional observations from a re-analysis of the deposited data

How the results depend on the processing

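Counts of calls depended on the fit, and so did the calls of several single P450 genes. Over all genes, 1005 were called higher, against 487 with limma on log2(TPM + 1), 509 on log2(TPM + 0.1), 2643 with the replicate block and 1529 without both replicate 1 libraries. For genes called lower the count was 571, against 1006 with library size alone, 1193 with DESeq2, 1000 and 1090 with limma on log2(TPM + 1) and log2(TPM + 0.1), 2797 with the block and 1462 without both replicate 1 libraries. With 1 library left out these counts ran from 484 to 947 and from 148 to 561. P450 genes called higher numbered 4, against 7 with DESeq2, 9 with the block and 8 without both replicate 1 libraries, and 3 to 5 with 1 library left out. P450 genes called lower numbered 0, against 1 with DESeq2, 2 with either limma fit, 3 with the block and 2 without both replicate 1 libraries; it was 0 to 1 with 1 library left out, the 1 being Cyp1b1 without differentiated 1. The pathway lists held 76 genes of the deposited table, not all of them tested. Over all genes tested, edgeR called 5.65% higher and 3.21% lower, or 14.9% and 15.7% with the block. Pathway genes called higher numbered 3, against 7 with DESeq2, 5 with no filter beyond 1 read, 5 without both replicate 1 libraries and 10 with the block, or 1 to 3 with 1 library left out. Pathway genes called lower numbered 1, against 2 with library size alone, 4 with DESeq2, 4 and 5 with the limma fits, 6 without both replicate 1 libraries and 12 with the block, or 1 to 3 with 1 library left out. The cause of these differences was not tested. The number of P450 genes counted as expressed was 45 with any read, 30 past the filter and 21 at a mean of 1 CPM.

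Of 225 values for 15 named P450 genes under 15 alternatives, 196 kept direction and call, 23 gained a call, 1 lost it (Cyp46a1 without precursor 2) and 5 changed sign. The sign changes were Cyp4f17, at -0.08 and -0.09 with limma on log2(TPM + 1) and log2(TPM + 0.1), and Cyp4v3, from -0.46 to 0.31 with 1 library left out; neither gene was called. With 3 libraries in each group, low genes such as Cyp26c1 and Cyp2s1 have wide intervals.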
